A study of Homo sapiens with 6 samples.

Results

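Regorafenib at 10 µM was compared with regorafenib at 1 µM in 2 human cell lines of bile duct carcinoma, HuccT1 and KKU-100, with the aim of finding which transcripts differ between the doses in the same way in both lines and which differ in 1 line. The comparison used 4 of the 6 arrays of the series, which were 1 array for each line and dose, chosen by their treatment labels. The solvent arrays were not used, so a difference between the doses does not tell which of them departs from untreated cells. The labels of all 4 arrays also mention a stable transduction and a puromycin selection, with no construct named, and the study's text gives other, lower doses with the same ratio between them. All doses below are those of the labels. The values are linear signal intensities of Affymetrix probe sets, and each gene was represented by its brightest probe set. With 1 array per line and dose, a difference within a line has no replicate and no p-value, and the 2 lines are the only replicates of a shared difference.

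Regorafenib is an oral inhibitor of several kinases, among them receptors of growth factors for vessels and stroma and the RAF kinases. Cells under proteotoxic or metabolic stress phosphorylate the initiation factor eIF2, which slows protein synthesis while translation of the transcription factor ATF4 goes up. ATF4 drives genes for amino acid synthesis, transport and redox balance, and partner factors such as ATF3 and DDIT3 act downstream of it. NF-kB is another stress-responsive factor, held in the cytoplasm by inhibitor proteins and known in epithelial tumour cells for driving chemokines and its own inhibitors.

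The lines were checked against biliary markers. HuccT1 had all 8 of KRT7, KRT19, KRT8, KRT18, EPCAM, SOX9, MUC1 and CLDN4 above the level filter, whereas KKU-100 had 5 of the 8, with KRT19 at 8.6 and 11.1, EPCAM at 9.0 in both arrays and CLDN4 at 11.9 and 14.3. Of the 17 hepatocyte, leukocyte, fibroblast and endothelial markers on the array, 10 were above the filter in HuccT1 and 8 in KKU-100. ALB, PTPRC and CDH5, each defining for its cell type, were at 10.8 or below in all 4 arrays, whereas CD3E lay between 37.3 and 44.3, PECAM1 between 56.5 and 73.1, TTR between 78.1 and 88.6, CYP3A4 between 57.9 and 82.4, DCN between 38.7 and 44.8 and COL1A1 between 135 and 197. The summed signal was 69.8 to 86.0 over 3 leukocyte markers and 103 to 135 over 4 endothelial ones. Summed over the 5 hepatocyte markers the signal was 2641 and 3673 in HuccT1, nearly all of it SERPINA1, and 350 and 334 in KKU-100. COL3A1, a fibrillar collagen of mesenchymal cells, reached 779 and 548 in KKU-100 and 8.1 or less in HuccT1. The ratio of the 3′ to the 5′ probe set of ACTB, a sign of RNA integrity, was 1.18, 1.22 and 1.23 on the other arrays and 1.69 on the KKU-100 array at 10 µM, while the same ratio of GAPDH was between 1.04 and 1.06 on all 4. The part of this in the KKU-100 differences was not tested.

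Across the 12084 genes whose signal reached the median of all probe sets in both lines, HuccT1 had 796 genes at least 1.5-fold higher at 10 µM (6.59% of those measured) and 475 lower (3.93%). KKU-100 had 524 higher (4.34%) and 196 lower (1.62%). Past 1.5-fold in both lines were 264 genes that were higher at 10 µM (2.18%) and 86 that were lower (0.712%). The median difference over all 12084 genes was 0.001 on the log2 scale in HuccT1 and -0.006 in KKU-100, and the SD of the differences was 0.377 and 0.32. Set against each other across genes, the 2 lines' differences gave r = 0.557 (Pearson) and rho = 0.502 (Spearman). This is a description over genes, which are not independent replicates, and the 2 lines share no array.

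**Figure D1:**
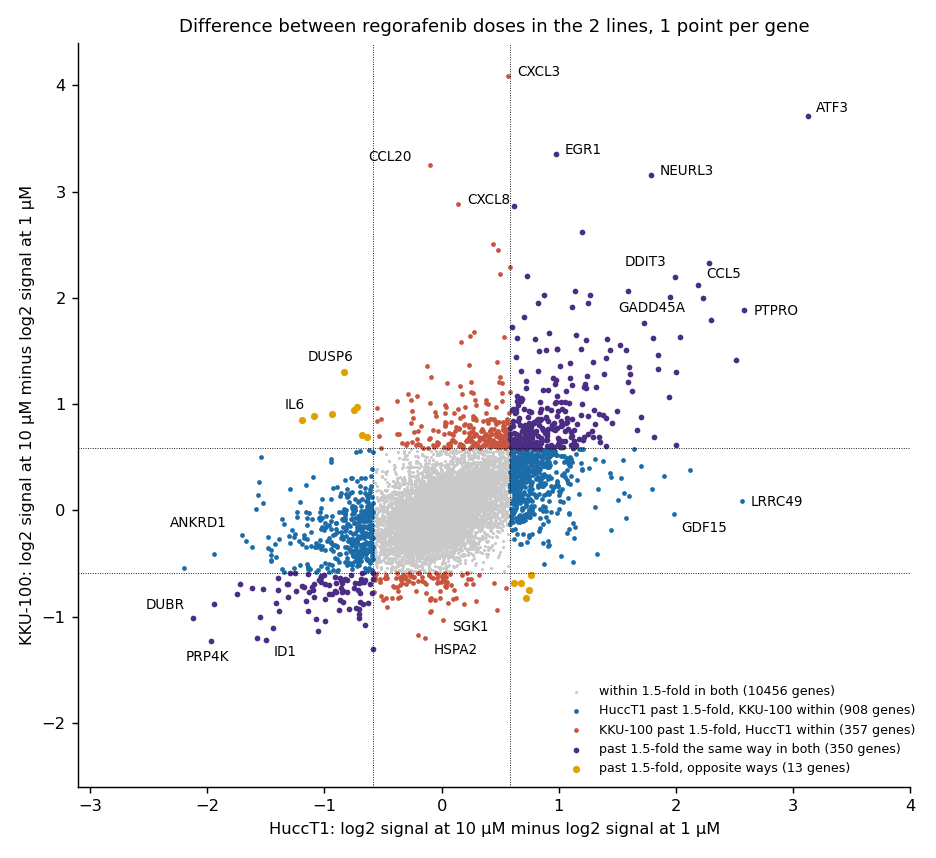
Log2 signal at 10 µM minus log2 signal at 1 µM in HuccT1 (horizontal axis) and KKU-100 (vertical axis) for 12084 genes, 1 point per gene, with dotted lines at 1.5-fold. The 264 genes higher in both lines fill the upper right, ATF3 farthest out at 3.13 and 3.71, the chemokines CXCL3, CCL20 and CXCL8 lie high on the KKU-100 axis and near or below 1.5-fold on that of HuccT1, and 13 genes lie in the opposite corners.

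A test of the difference common to both lines (limma, cell line as a block, Benjamini-Hochberg adjustment over 27307 probe sets) called 125 probe sets higher at 10 µM (0.458%) and 29 lower (0.106%). These stood for 63 genes higher and 17 lower by their own probe set, and 73 of the 80 were past 1.5-fold the same way in both lines. The fit has 1 residual degree of freedom, and it called 0 probe sets without the intensity trend in the variance, where the smallest adjusted p was 0.068, and 0 without the cell line block. The calls are therefore given as the ordering of genes by this fit, and the values of each array stand beside them.

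By the brightest probe sets, the shared difference was widest for ATF3, a transcription factor induced by many stresses. Its signal was 99.9 at 1 µM and 875 at 10 µM in HuccT1, and 121 and 1588 in KKU-100. Both high dose arrays lay above both low dose arrays, with log2 differences of 3.13 and 3.71 and a mean of 3.42 ± 0.17 (SE, limma, adjusted p = 0.00758). The median over the 3 probe sets of ATF3 was 1.66 and 2.18, less than the differences of DDIT3, which has 1 probe set. DDIT3, the stress-induced C/EBP family factor also called CHOP, went from 726 to 2898 in HuccT1 and from 451 to 2066 in KKU-100. DDIT3 was thus 3.99-fold and 4.58-fold higher, again with no overlap between doses (limma, adjusted p = 0.00758). PPP1R15A, the phosphatase subunit that reverses eIF2 phosphorylation, went from 182 to 701 and from 228 to 917. GADD45A, a stress and growth arrest gene, went from 1691 to 5585 in HuccT1 and from 2430 to 8230 in KKU-100. GADD45A differed by almost the same amount in both lines, 1.72 and 1.76 on the log2 scale, and had the smallest p of the fit with COX1 (limma, adjusted p = 0.00568 for each).

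The list of ATF4 pathway regulators and targets had 8 of 17 measured members past 1.5-fold higher in each line and none lower, beside 6.59% and 4.34% of all genes. The median difference of the list was 0.57 in HuccT1 and 0.38 in KKU-100. The 7 members higher in both lines were ATF3, DDIT3, PPP1R15A, SESN2, CHAC1, TRIB3 and CEBPG, and limma called 6 members higher. SESN2, a stress protein that restrains the growth kinase mTORC1, differed by 1.59 and 2.06. CHAC1, an enzyme that breaks down glutathione, went from 278 to 662 in HuccT1 and from 135 to 520 in KKU-100. TRIB3, a pseudokinase that dampens the same pathway, differed by 1.01 and 1.36. ATF4 itself, which is controlled mostly at translation, differed by 0.16 and 0.38, under 1.5-fold in both lines. GDF15, a secreted stress cytokine, was the member that stood apart between lines, moving from 76.2 to 301 in HuccT1 against 2212 and 2163 in KKU-100. Over the 3 probe sets of GDF15 the median difference in HuccT1 was 0.06, so its value there rests on the brightest of them.

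Promoter sequence of 4 genes higher in both lines is shown, ATF3 and CHAC1 of the ATF4 list, ASNS of amino acid synthesis and HERPUD1 of the endoplasmic reticulum list, because it holds the letters of the composite site that ATF4 binds with C/EBP factors, TGATGNAA, read on both strands. Each stretch is 120 bases around the match, all of it upstream of the gene start, from RefSeq on GRCh38.p14, 5′ to 3′ along the gene's strand, with the match in capitals. ATF3 is at chr1:212565160-212565279 on the plus strand, HERPUD1 at chr16:56931910-56932029 on the plus strand, CHAC1 at chr15:40953221-40953340 on the plus strand and ASNS at chr7:97872413-97872532 on the minus strand. In HERPUD1 and CHAC1 the match is on the opposite strand and is printed as TTGCATCA.
ATF3: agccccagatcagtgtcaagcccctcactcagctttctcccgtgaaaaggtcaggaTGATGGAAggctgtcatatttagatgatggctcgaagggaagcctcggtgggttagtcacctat
HERPUD1: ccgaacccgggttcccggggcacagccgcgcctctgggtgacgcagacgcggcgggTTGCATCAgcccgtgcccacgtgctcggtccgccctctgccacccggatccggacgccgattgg
CHAC1: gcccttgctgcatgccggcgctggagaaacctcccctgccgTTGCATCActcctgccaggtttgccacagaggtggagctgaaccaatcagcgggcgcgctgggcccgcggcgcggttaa
ASNS: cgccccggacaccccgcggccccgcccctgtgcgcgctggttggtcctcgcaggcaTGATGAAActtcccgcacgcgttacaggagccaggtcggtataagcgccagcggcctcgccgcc
The match starts 191 bases before the start of ATF3, 176 before HERPUD1, 209 before CHAC1 and 68 before ASNS. In the window from 250 bases before to 50 after the start, TGATGNAA was found in 4 of 24 genes with a promoter in the ATF4 and amino acid synthesis lists (16.7%; ATF3, CHAC1, ASNS and GOT1). The lists hold known ATF4 targets, so this share describes how they were made. TGATGNAA was found in 7 of 212 genes higher in both lines (3.3%) and in 0 of 68 genes lower in both. ATF3, CHAC1, ASNS and GOT1 of those lists and HERPUD1 are among the 7, so the 3.3% is not separate from the lists' share. In all measured genes the motif was in 172 of 9811 (1.75%). Among genes higher in HuccT1 and within 1.5-fold in KKU-100 it was in 17 of 434 (3.92%). Among those higher in KKU-100 and within 1.5-fold in HuccT1 it was in 4 of 209 (1.91%). DDIT3 held no match in its window. The AP-1 site TGANTCA was found in 4.72% of the genes higher in both lines and 4.68% of the measured genes, and the cAMP response element TGACGTCA in 5.19% and 3.23%. The motifs can overlap at their ends. A match is a description of the letters and not a measured binding site.

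Genes for the synthesis of serine, one-carbon units, asparagine and cysteine form a separate list. Of 13 measured members, 7 were past 1.5-fold higher in HuccT1 and 7 in KKU-100, 6 of them in both and none lower, with medians of 0.65 and 0.62. Over all genes 6.59%, 4.34% and 2.18% were higher in HuccT1, in KKU-100 and in both. ASNS, asparagine synthetase, went from 1363 to 4907 in HuccT1 and from 803 to 2018 in KKU-100, a difference of 1.85 and 1.33, and the median of its 2 probe sets was 1.03 and 0.77. PCK2, the mitochondrial phosphoenolpyruvate carboxykinase, differed by 1.15 and 1.65. CTH, which makes cysteine from cystathionine, went from 483 to 1930 in HuccT1 and from 167 to 257 in KKU-100, where the median of its 2 probe sets was 0.39. ALDH1L2, a mitochondrial folate enzyme, differed by 1.25 and 0.72 at its brightest probe set and by 0.37 and 0.44 over the median of its 3 probe sets. PSAT1, of the same serine pathway, was not among them, at -0.17 and 0.20.

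Amino acid transporters and tRNA synthetases differed less. Among 11 measured transporters, 2 were past 1.5-fold higher in HuccT1 and 1 in KKU-100, beside 6.59% and 4.34% of all genes, and none in both. The 2 in HuccT1 were the subunits of the cystine and glutamate exchanger, SLC7A11 (431 to 1347) and SLC3A2 (1247 to 4060), which differed by 1.64 and 1.70 there and by 0.58 and 0.42 in KKU-100. No error exists for this gap between the lines, which was not tested. All 17 measured cytosolic tRNA synthetases were above 0 in HuccT1, with a median of 0.25, and none passed 1.5-fold, beside 10.52% of all genes. In KKU-100, 10 of the 17 were above 0, with a median of 0.04. GARS1, which charges glycine, was called higher by limma at 0.55 and 0.76 (adjusted p = 0.0417).

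The chaperones and degradation factors of the endoplasmic reticulum (ER) were split within the list. Of 22 measured members, 6 were past 1.5-fold higher in each line, 5 of them in both, and none was lower, beside 6.59%, 4.34% and 2.18% of all genes. The 5 were DNAJB9, HERPUD1, ERN1, DNAJC3 and XBP1. DNAJB9, a co-chaperone of the ER, went from 680 to 2450 in HuccT1 and from 667 to 1835 in KKU-100. HERPUD1, a component of ER-associated degradation, differed by 1.61 and 1.28 (limma, adjusted p = 0.0121), with a median over its 2 probe sets of 0.95 in HuccT1. ERN1, the stress sensor IRE1, differed by 1.26 and 2.03 at its brightest probe set, and the median of its 3 probe sets was -0.23 and 0.51. Over the median of their probe sets, DNAJC3 was within 1.5-fold in KKU-100 (0.52) and XBP1 in both lines (0.44 and 0.21). The abundant chaperones stayed within 1.5-fold: HSPA5, the main Hsp70 of the ER, was at 0.34 and 0.56, HSP90B1 at 0.09 and -0.17, and CALR at -0.25 and 0.20. The median of the list was 0.18 and 0.25. FICD, the enzyme that modifies HSPA5 and no member of the list, was higher in both lines at 1.53 and 1.55, and was picked out after its values were seen.

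**Figure D2:**
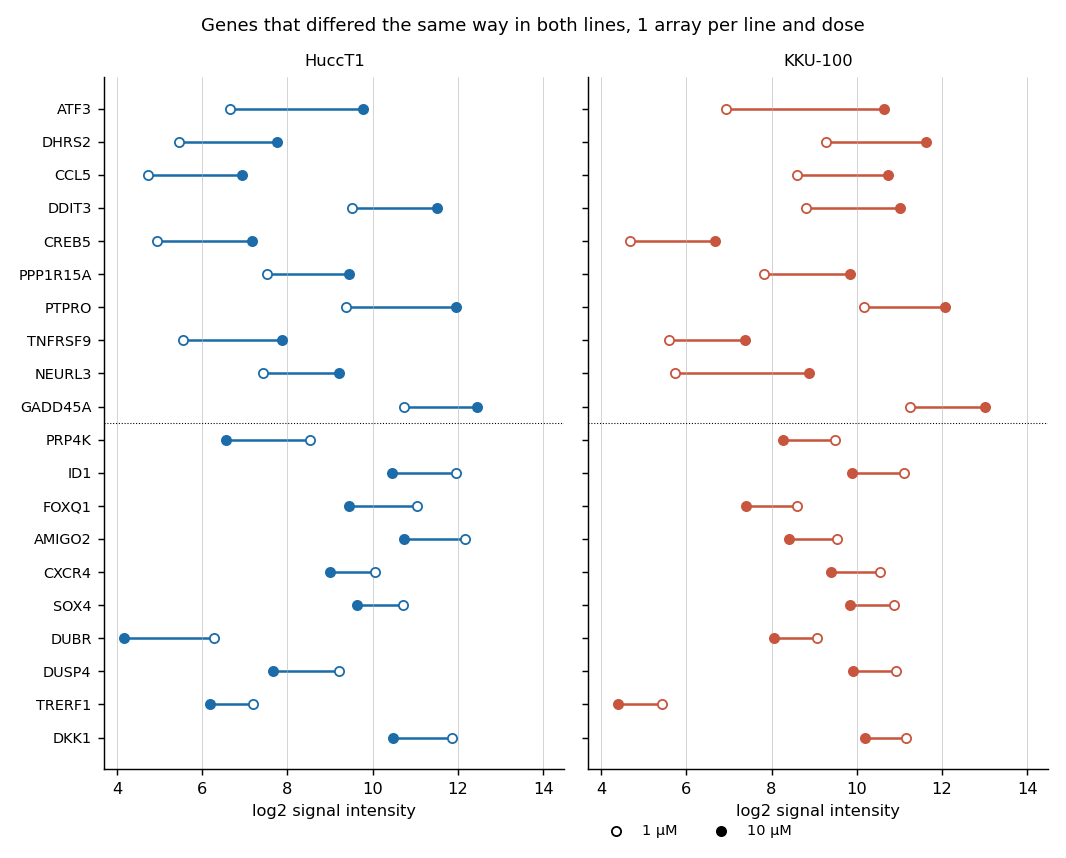
Log2 signal intensity on each array for the 10 genes higher (above the dotted line) and the 10 lower in both lines that rank first by the smaller of their 2 differences, with open circles at 1 µM and filled circles at 10 µM. ATF3 spans the widest gap, 3.13 in HuccT1 and 3.71 in KKU-100, GADD45A differs by 1.72 and 1.76, and DKK1 by -1.39 and -0.95.

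The other genes highest in both lines had varied roles. DHRS2, a short-chain dehydrogenase, went from 44.0 to 215 in HuccT1 and from 624 to 3137 in KKU-100, so the lines differed in level while the dose difference was 2.29 and 2.33. CCL5, a chemokine for T cells and monocytes, went from 26.6 to 121 and from 388 to 1691. TNFRSF9, a receptor of the tumour necrosis factor family, differed by 2.30 and 1.79, or by 1.28 and 0.88 over the median of 3 probe sets, and NEURL3, a ubiquitin ligase, by 1.79 and 3.16. CREB5, a factor of the CREB family, differed by 2.24 and 1.99 at its brightest probe set, with a median of 0.36 over its 4 probe sets in KKU-100. PTPRO, a receptor phosphatase, differed by 2.58 and 1.89 at its brightest probe set and by 0.04 and -0.03 over the median of 3, so that call rests on 1 probe set. RCAN1, an inhibitor of calcineurin, went from 3410 to 8338 in HuccT1 and from 895 to 2351 in KKU-100 (limma, adjusted p = 0.0081), where the median of its 3 probe sets was 0.69 against 1.39. JUN, the AP-1 subunit, differed by 1.32 and 1.17 (limma, adjusted p = 0.015).

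COX1 here is the cytochrome oxidase subunit encoded by the mitochondrial genome. Its signal went from 7654 to 14986 in HuccT1 and from 7686 to 15444 in KKU-100, a difference of 0.97 and 1.01 with a limma SE of 0.04. The other mitochondrial genes that could be named differed less. ND2 was at 0.79 and 0.40, ND4 at 0.42 and 0.34, ND6 at 0.38 and -0.04, ATP6 at 0.26 and 0.31, and COX2 and COX3 at 0.18 or less in each line. None of the 22 measured oxidative phosphorylation subunits of the nuclear genome passed 1.5-fold, beside 10.52% of all genes in HuccT1 and 5.96% in KKU-100. Their median was -0.08 in both lines.

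Stress and death genes outside the ATF4 list were partly shared. Among 17 measured p53 targets, 5 were past 1.5-fold higher in HuccT1 and 2 in KKU-100, beside 6.59% and 4.34% of all genes, the 2 in both being GADD45A and TNFRSF10B. TNFRSF10B, the death receptor DR5, went from 1059 to 1931 in HuccT1 and from 2160 to 3649 in KKU-100, although the median of its 4 probe sets was 0.39 and 0.13. The p53 inhibitor MDM2 was at -0.22 and 0.10, and CDKN1A, the cell cycle inhibitor p21, at 0.62 and 0.26. TXNIP, a glucose-regulated arrestin that binds thioredoxin, went from 456 to 2610 and from 208 to 554 (0.90 over the median of 3 probe sets in KKU-100), and its relative ARRDC4 from 171 to 703 and from 99.7 to 309. All 8 measured metallothionein and zinc genes were above 0 in both lines, with a median of 0.35 in each. Only SLC30A1, the zinc exporter of the cell membrane, passed 1.5-fold in both, at 1.70 and 0.88, beside 2.18% of all genes. The 309 measured zinc finger genes with symbols starting in ZNF or ZSCAN, a set counted after their values were seen, made up 2.56% of the measured genes and 6.44% of those higher in both lines (17 of 264), and their median difference was 0.20 and 0.13.

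The genes that came first among the 86 lower in both lines were of several kinds. ID1, an inhibitor of basic helix-loop-helix factors and a target of BMP signals, went from 3980 to 1408 in HuccT1 and from 2196 to 944 in KKU-100 (limma, adjusted p = 0.0166). FOXQ1, a forkhead factor, differed by -1.58 and -1.20, and SOX4, an HMG box factor, by -1.07 and -1.02. DUSP4, a phosphatase of ERK and a readout of the MAP kinase pathway, went from 591 to 202 and from 1947 to 971. It was the only 1 of 17 measured MAP kinase feedback genes past 1.5-fold lower in both lines, and 2 went opposite ways. In that list 0 were higher and 3 lower in HuccT1, beside 6.59% and 3.93% of all genes, with a median of 0.02. In KKU-100, 3 were higher and 2 lower, beside 4.34% and 1.62%, with a median of 0.06. CXCR4, the receptor of CXCL12, went from 1056 to 509 in HuccT1 and from 1489 to 679 in KKU-100. DKK1, a secreted WNT inhibitor, went from 3744 to 1432 and from 2274 to 1177. AMIGO2, an adhesion protein, differed by -1.44 and -1.11. DUBR, a long non-coding RNA, went from 78.0 to 17.9 in HuccT1 and from 537 to 266 in KKU-100. PRP4K, a kinase of the spliceosome, and TRERF1, a transcriptional regulator, differed past 1.5-fold at their brightest probe set alone, with medians over their probe sets of -0.19 and -0.49 for PRP4K and -0.07 and -0.23 for TRERF1.

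Mitotic genes lay below 0 nearly throughout, by small amounts. Of 24 measured members, 2 were above 0 in HuccT1 and 0 in KKU-100, with medians of -0.21 and -0.42, beside medians of 0.001 and -0.006 over all genes. Past 1.5-fold lower were 1 in HuccT1 and 3 in KKU-100, beside 3.93% and 1.62% of all genes. DLGAP5, a spindle protein, was the member lower in both, from 2972 to 1808 and from 817 to 486 (limma, adjusted p = 0.0481). The motor KIF20A differed by -0.53 and -0.67, and MKI67, the proliferation marker, by -0.27 and -0.49. Genes of G1/S and DNA replication had medians of -0.10 and -0.15. Of 28 measured, 1 was higher and 1 lower in HuccT1 and 2 were lower in KKU-100, beside 6.59%, 3.93% and 1.62% of all genes. Ribosome biogenesis genes had 0 of 19 past 1.5-fold in either line, beside 10.52% of all genes in HuccT1 and 5.96% in KKU-100.

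The Hippo pathway was the subject of the study, so its genes were followed by a list of their own. YAP1, the coactivator, went from 2023 to 1542 in HuccT1 and from 1205 to 1121 in KKU-100, a difference of -0.39 and -0.10, within 1.5-fold. Its paralogue WWTR1 was at -0.16 and -0.24. TAF4 was at -0.47 and -0.31 at its brightest probe set, and the median of its 2 probe sets was 0.055 and -0.066. The kinase LATS1 passed 1.5-fold higher in both lines at its brightest probe set, at 1.03 and 0.81, and the median of its 4 probe sets was 0.39 and -0.14. Of 18 measured YAP/TAZ targets, 4 were past 1.5-fold lower in HuccT1 and 2 in KKU-100 and none higher, beside 3.93% and 1.62% of all genes lower, with medians of -0.35 and -0.09. The 2 lower in both were F3, tissue factor, which went from 5882 to 2728 in HuccT1 and from 1042 to 634 in KKU-100, and FJX1, at -0.96 and -0.70. ANKRD1, a widely used YAP readout, went from 543 to 166 in HuccT1 and from 54.1 to 46.3 in KKU-100. CCN2 differed by -0.56 and 0.38 and CCN1 by -0.30 and 0.17, so these 2 targets had opposite signs in the 2 lines, both within 1.5-fold. UHRF1, which keeps up DNA methylation at replication, went from 1399 to 773 in HuccT1 and from 900 to 570 in KKU-100, past 1.5-fold in both (limma, adjusted p = 0.058).

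Of the remaining genes named in the study, PTGS2, the inducible cyclooxygenase, went from 421 to 772 in HuccT1 and from 20.4 to 83.1 in KKU-100, higher past 1.5-fold in both. The epithelial cadherin CDH1 was at -0.25 and 0.06 and vimentin, VIM, at -0.38 and -0.15. BCL2L11, CCND1, CCNE1 and CDKN1B were within 1.5-fold in both lines. SNAI1, which the study does not name, was at -0.14 and 0.19, with low signals between 30.8 and 35.1. The list of EGF family ligands and receptors does not hold every ligand. It had 0 of 8 measured members past 1.5-fold in both lines, beside 2.18% higher and 0.712% lower of all genes. In HuccT1, 1 was lower, beside 3.93% of all genes, and in KKU-100, 2 were higher, beside 4.34%. NRG1, a ligand, was the member lower in HuccT1, at -0.74 against -0.07 in KKU-100. HBEGF was at 0.34 and 0.77, with a median over its 4 probe sets of 0.36 in KKU-100, and EREG at 0.27 and 0.78. None of the 8 measured kinase targets of regorafenib passed 1.5-fold in either line, beside 10.52% of all genes in HuccT1 and 5.96% in KKU-100. DDR2 was at 0.34 and 0.25.

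Of the 34 gene lists, the NF-kB targets had the widest gap between the medians of the 2 lines. In KKU-100, 17 of 21 measured members were past 1.5-fold higher and none lower (4.34% of all genes were higher), with a median difference of 1.36. In HuccT1, 6 were higher and 2 lower (6.59% and 3.93% of all genes), with a median of 0.44. CXCL3, a neutrophil chemokine, went from 69.7 to 1187 in KKU-100 and from 5727 to 8472 in HuccT1, a difference of 4.09 and 0.57. CCL20, which attracts cells with CCR6, went from 49.3 to 469 in KKU-100 and from 8676 to 8098 in HuccT1. CXCL8, interleukin-8, went from 562 to 4159 and from 7626 to 8417. In all 3 the signal of HuccT1 at 1 µM was higher than that of KKU-100 at 10 µM. This held for 17 of the 21 members, the exceptions being NFKBIA, RELB, SOD2 and TNFRSF9, against 48.1% of all measured genes. With 1 array per line and dose there is no error for a comparison between the lines, which was not tested, and the KKU-100 array at 10 µM is the one with the higher ACTB ratio.

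The list also holds inhibitors and subunits of the factor. TNFAIP3, the ubiquitin-editing inhibitor A20, went from 438 to 2046 in KKU-100 and from 2662 to 3758 in HuccT1. NFKBIZ, a nuclear member of the inhibitor family, differed by 2.50 in KKU-100 and 0.44 in HuccT1, and NFKBIE by 1.37 and 0.24. NFKBIA went from 2825 to 3719 in KKU-100 and from 2832 to 3621 in HuccT1, nearly the same in both lines and within 1.5-fold. The 6 targets higher in both lines were TNFRSF9, ICAM1, NFKB1, RELB, TNFAIP2 and TRAF1. NFKB1, which encodes the p50 subunit, went from 625 to 1300 in HuccT1 and from 309 to 589 in KKU-100 (limma, adjusted p = 0.042). ICAM1, an adhesion molecule for leukocytes, differed by 1.22 and 1.19 (limma, adjusted p = 0.0362), with a median over its 3 probe sets of 0.80 and 0.51. In KKU-100 the median over probe sets was 0.97 for TNFAIP2 and 0.35 for TRAF1. IL6 was the target that went opposite ways, from 4021 to 1886 in HuccT1 and from 30.6 to 56.6 in KKU-100.

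**Figure D3:**
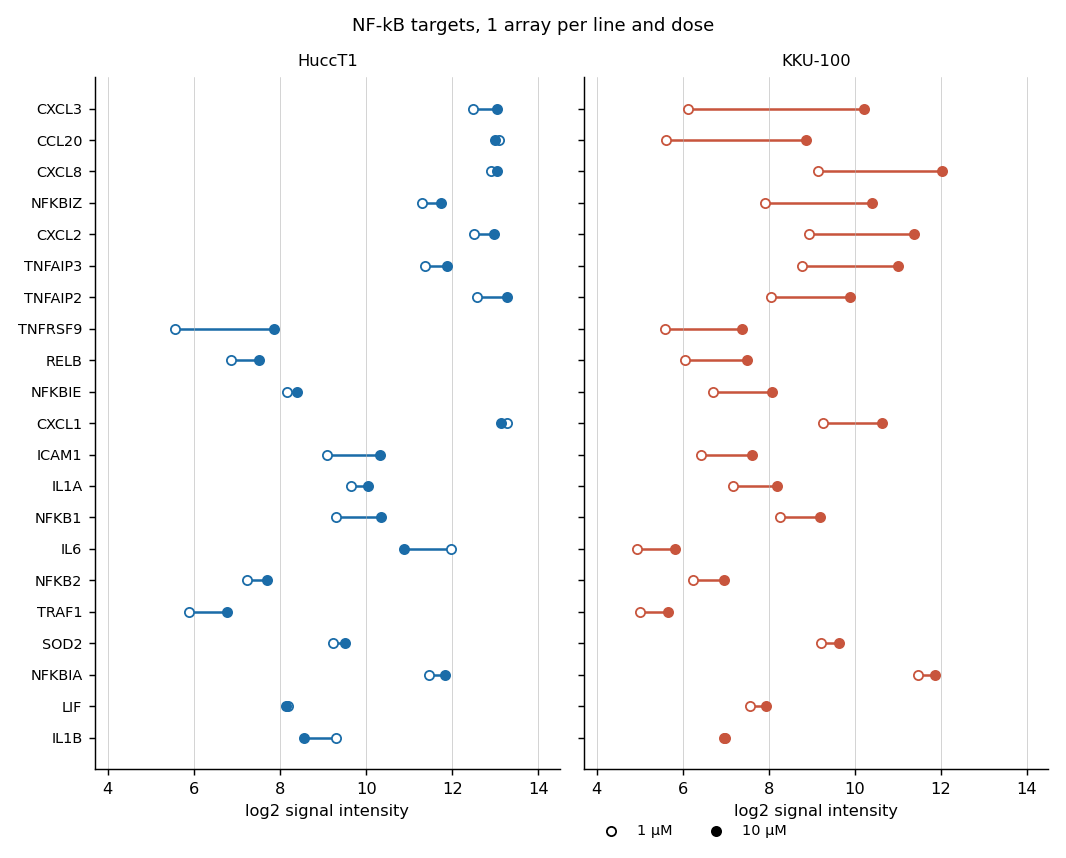
Log2 signal intensity of the 21 measured NF-kB targets on each array, ordered by the difference in KKU-100, with open circles at 1 µM and filled circles at 10 µM. In KKU-100 all but IL1B lie higher at 10 µM, with CXCL3 moving by 4.09, while in HuccT1 the chemokines CXCL1, CXCL8 and CCL20 lie between 12.9 and 13.3 at both doses.

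The promoters of the 4 neighbouring CXC chemokines of this list are shown because they carry the same NF-kB letters, GGANNTTCC, at a similar place. This motif was added after the values had been seen. Each stretch is again 120 bases around the match and upstream of the gene start, on GRCh38.p14 from RefSeq, with the match in capitals: CXCL1 at chr4:73869260-73869379 and CXCL8 at chr4:73740423-73740542 on the plus strand, CXCL2 at chr4:74099208-74099327 and CXCL3 at chr4:74038703-74038822 on the minus strand.
CXCL1: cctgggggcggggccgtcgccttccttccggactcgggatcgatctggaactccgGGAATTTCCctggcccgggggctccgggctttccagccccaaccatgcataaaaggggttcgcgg
CXCL2: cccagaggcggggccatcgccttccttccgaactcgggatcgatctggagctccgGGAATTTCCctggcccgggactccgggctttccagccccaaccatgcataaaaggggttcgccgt
CXCL3: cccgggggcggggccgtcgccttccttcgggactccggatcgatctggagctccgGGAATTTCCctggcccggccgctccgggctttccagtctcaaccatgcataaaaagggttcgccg
CXCL8: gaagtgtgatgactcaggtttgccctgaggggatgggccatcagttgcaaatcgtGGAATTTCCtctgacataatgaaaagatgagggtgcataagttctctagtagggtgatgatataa
The match starts 78, 77, 78 and 91 bases before the start in this order. GGANNTTCC, read on both strands, was found in 12 of the 18 list members with a promoter (66.7%) and in 439 of 9811 measured genes (4.47%). The list holds genes known as targets, so this share describes how the list was made. Among the genes higher in KKU-100 and within 1.5-fold in HuccT1 the motif was in 18 of 209 (8.61%). Among those higher in HuccT1 and within 1.5-fold in KKU-100 it was in 22 of 434 (5.07%). Of the genes higher in both lines, 16 of 212 held it (7.55%). The 18 include the list members CXCL1, CXCL2, CXCL3, CXCL8, NFKBIZ and TNFAIP3. The 16 include TNFRSF9, ICAM1, NFKB1 and TRAF1, so neither share is separate from that of the list. CXCL1 differed by 1.36 in KKU-100 and -0.12 in HuccT1, and CXCL2 by 2.45 and 0.48, with a median over its 3 probe sets of 0.80 in KKU-100.

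Over all measured genes, 252 were higher in KKU-100 and within 1.5-fold in HuccT1 (2.09%), and 105 were lower (0.869%). With HuccT1 held to 1.2-fold or less these were 97 and 61. Members of the NF-kB list, such as CCL20 and CXCL8, are among the 252 and the 97. IRAK2, a kinase of interleukin-1 receptor signalling, went from 335 to 1007 in KKU-100 against 622 and 697 in HuccT1, but the median of its 3 probe sets in KKU-100 was 0.08. HDAC9, a histone deacetylase, was likewise higher at its brightest probe set, at 1.64, with a median of 0.08 over 5. ETS1, a transcription factor, went from 196 to 467 in KKU-100 and from 2962 to 2778 in HuccT1, and the median of its 3 probe sets in KKU-100 was 0.48, within 1.5-fold. ZNF670, a zinc finger gene, differed by 1.21 and 0.25. On the lower side, SGK1, a kinase induced by serum and glucocorticoids, went from 3791 to 1858 in KKU-100 and was at 543 and 548 in HuccT1. SOX9, a factor of biliary progenitors, went from 1059 to 547 in KKU-100 and was at 688 and 644 in HuccT1. NR2F1, a nuclear receptor, was at 1253 and 687 against 95.3 and 99.3, and the testis-enriched chaperone HSPA2 at 184 and 80.0 against 52.9 and 48.0. UNC93B1, which carries Toll-like receptors, differed by -1.18, S100A14 by -0.95, SERTAD4 by -0.88 and TLE4, a corepressor, by -0.84 in KKU-100. The medians over probe sets of UNC93B1 and SERTAD4 were within 1.5-fold, at -0.54 and -0.44.

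In HuccT1, 527 genes were higher and within 1.5-fold in KKU-100 (4.36%) and 381 lower (3.15%), or 197 and 200 with KKU-100 held to 1.2-fold or less. LRRC49 led the higher ones, going from 230 to 1358 in HuccT1 against 125 and 133 in KKU-100. IL6R, the receptor of interleukin-6, went from 23.8 to 72.3 in HuccT1 and from 75.3 to 82.9 in KKU-100, with 1.06 over the median of 3 probe sets against 1.60 in HuccT1. BAMBI, a decoy receptor of the TGF-beta family, was at 130 and 371 against 667 and 712. CLU, the extracellular chaperone clusterin, was at 77.6 and 211 against 3030 and 2662. RGS16, a regulator of G protein signalling, differed by 1.56, SYTL2, a vesicle transport protein, by 1.58 and the pseudogene NMRAL2P by 1.79 in HuccT1. Among early response factors, KLF10, induced by TGF-beta, went from 594 to 1476 in HuccT1 and from 1074 to 1096 in KKU-100, whereas EGR1 was higher in both lines, at 0.98 in HuccT1 and 3.36 in KKU-100.

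Of 10 measured genes of ID and BMP feedback, 3 were past 1.5-fold lower in HuccT1 and 1 higher, beside 3.93% and 6.59% of all genes, and 1 was lower in KKU-100, ID1, beside 1.62%. BMP4, a BMP ligand, went from 1087 to 354 in HuccT1 and from 68.6 to 54.1 in KKU-100. SMAD6, an inhibitor of BMP signals, was at 355 and 140 against 52.0 and 47.6, with a median of -0.09 over its 4 probe sets in HuccT1. TGFB2 went from 911 to 343 in HuccT1 and from 348 to 257 in KKU-100. MYADM, a membrane protein, was at 1500 and 538 against 4118 and 3466, and TSPAN8, a tetraspanin, at 1244 and 505 against 1770 and 1501. ARTN, a ligand of the GDNF family, differed by -1.57 and 0.14, with a median over its 3 probe sets of -0.95 in HuccT1, and TMEM92, a membrane protein, by -1.36 and -0.08. HMGA2, a chromatin protein, and NOL4L differed by -1.52 and -1.58 in HuccT1 at their brightest probe sets and by -0.13 and -0.29 over the median of all.

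**Figure D4:**
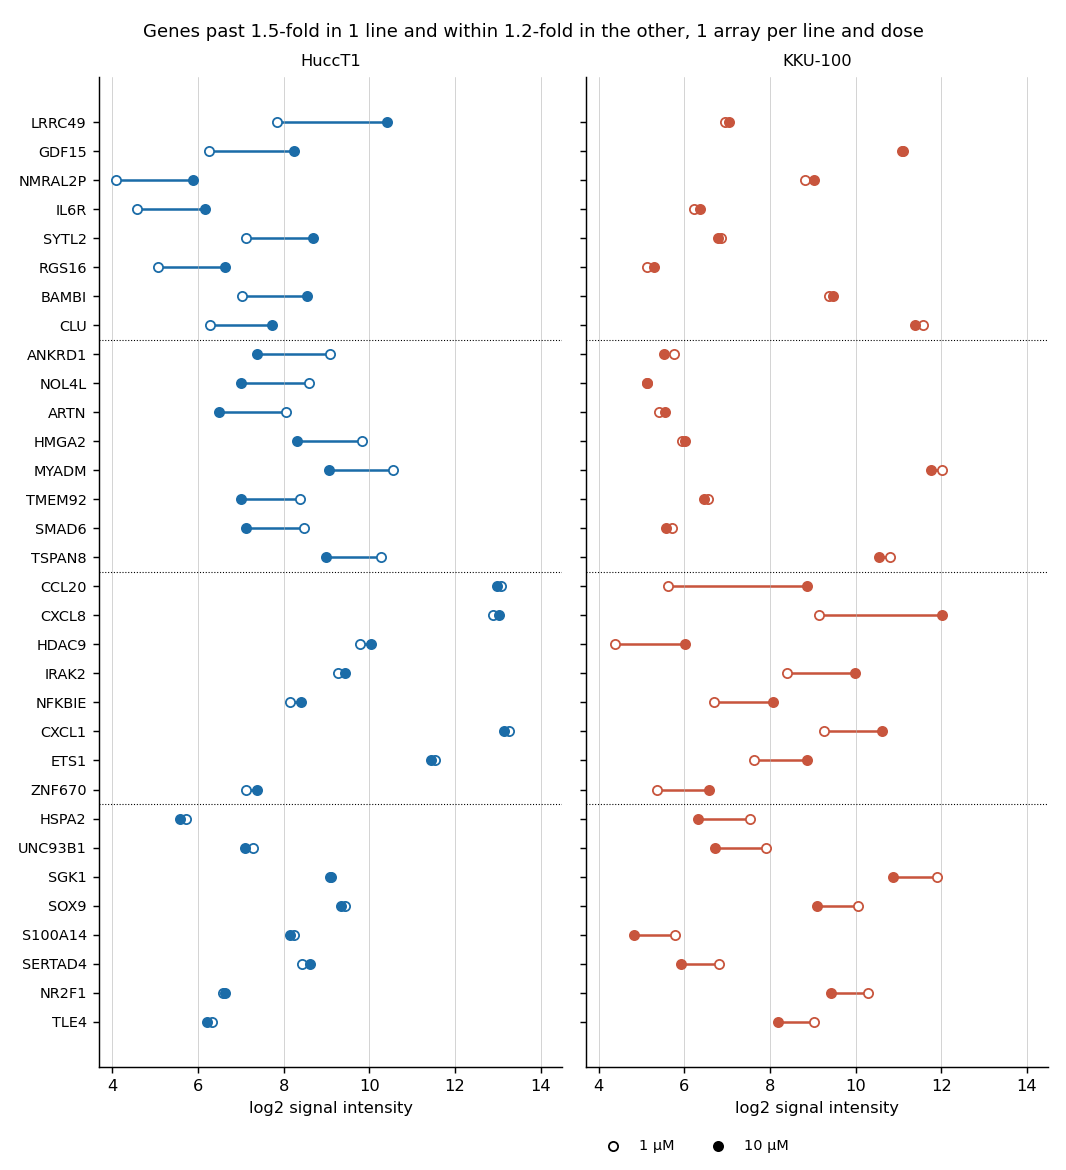
Log2 signal intensity on each array of the genes past 1.5-fold in 1 line and within 1.2-fold in the other, 8 for each line and direction, with open circles at 1 µM and filled circles at 10 µM. The blocks from top to bottom are higher in HuccT1, lower in HuccT1, higher in KKU-100 and lower in KKU-100. LRRC49 moves by 2.56 in HuccT1 and 0.09 in KKU-100, and CCL20 by -0.10 and 3.25.

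Glucose and hypoxia genes and the targets of NRF2, the factor of the antioxidant response, followed the lines unevenly. Of 20 measured hypoxia and glycolysis genes, 4 were past 1.5-fold lower and 2 higher in HuccT1, and 2 were lower in KKU-100, beside 3.93% lower and 6.59% higher of all genes in HuccT1 and 1.62% lower in KKU-100. SLC2A3, a glucose transporter, was lower in both lines, from 265 to 111 and from 2698 to 1792 (-0.56 with quantile normalization and -0.58 with centring in KKU-100, both within 1.5-fold), and SLC2A1 differed by -0.89 and -0.34. The 2 higher in HuccT1 were VEGFA, at 0.81, and ADM, adrenomedullin, from 305 to 663 against 1938 and 1782 in KKU-100. NRF2 targets had 2 of 16 higher and 3 lower in HuccT1, beside 6.59% and 3.93% of all genes, and 0 higher and 3 lower in KKU-100, beside 4.34% and 1.62%. The 3 lower in HuccT1 were AKR1B10, AKR1C1 and AKR1C3. AKR1C1 was at -0.01 there over the median of 5 probe sets, and AKR1C3 was at -0.98 and -0.54. HMOX1, heme oxygenase, went from 72.4 to 106 in HuccT1 and from 922 to 558 in KKU-100, a difference of 0.55 and -0.73. Interferon-stimulated genes had medians of 0.10 and -0.14, with IRF1, an early factor of the response, higher in both lines at 0.98 and 1.52 (limma, adjusted p = 0.0449) and IFIT1 lower in both at -0.68 and -0.59, the latter within 1.5-fold at -0.58 with centring. The cytokine IL6, the activin subunit INHBA and the ERK feedback genes DUSP6 and SPRY1 were among the genes that went opposite ways, 8 lower in HuccT1 and higher in KKU-100 (0.0662%) and 5 the other way (0.0414%).

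**Figure D5:**
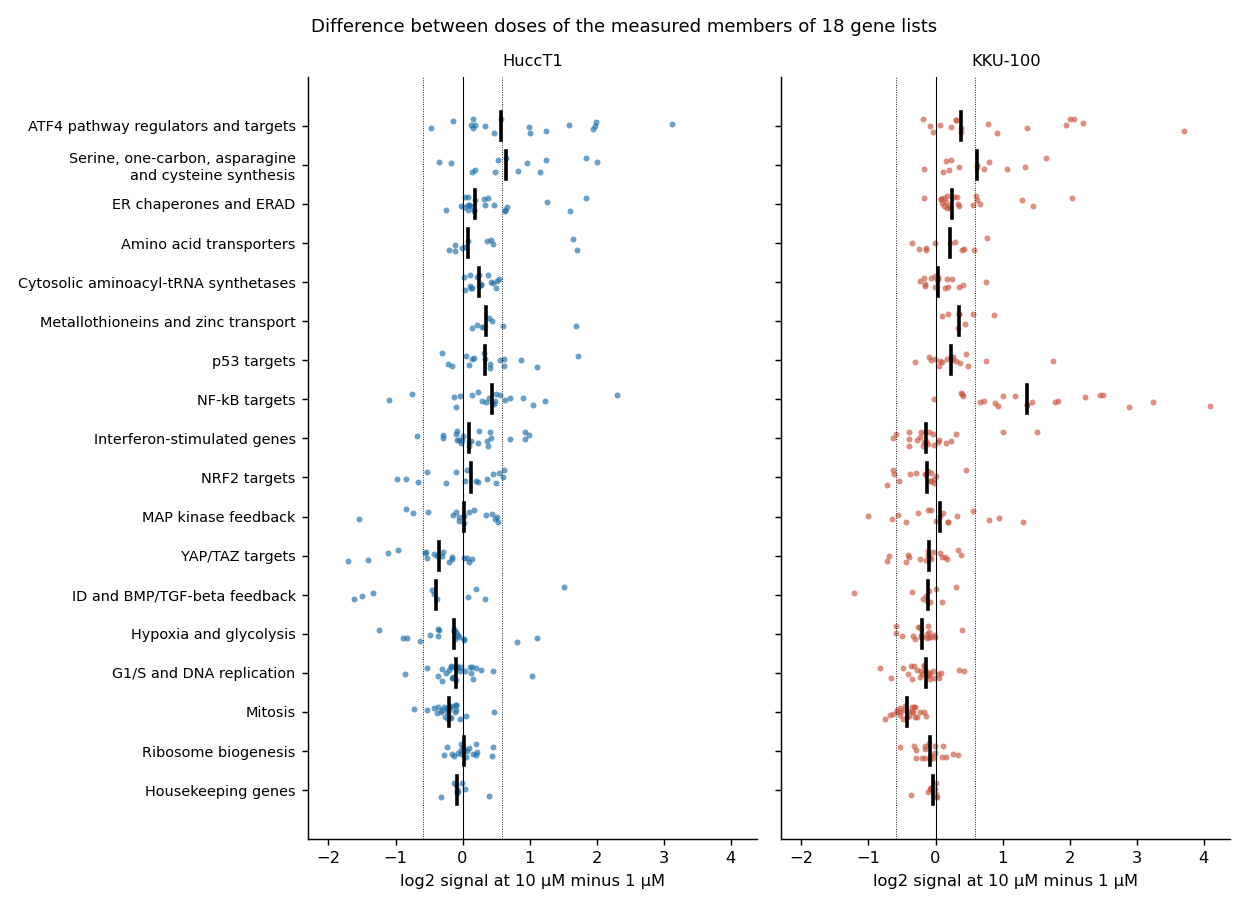
Difference between doses on the log2 scale of every measured member of 18 gene lists in HuccT1 (left) and KKU-100 (right), 1 point per gene, with black bars at the medians and dotted lines at 1.5-fold. The NF-kB list has a median of 0.44 in HuccT1 and 1.36 in KKU-100, the ATF4 list lies at 0.57 and 0.38, and the mitosis list at -0.21 and -0.42.

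Some genes were measured above the level filter in 1 line alone, 757 in HuccT1 and 630 in KKU-100. Of the 757, 59 were past 1.5-fold higher and 122 lower in HuccT1, beside 6.59% and 3.93% of the genes measured in both lines. Of the 630, 50 were higher and 32 lower in KKU-100, beside 4.34% and 1.62%. LAMP3, a lysosomal membrane protein, went from 159 to 691 in HuccT1 and from 16.8 to 19.9 in KKU-100. CCL28, a mucosal chemokine, went from 955 to 228 in HuccT1 against 21.6 and 21.9 in KKU-100, and VNN1, a pantetheinase, went from 523 to 113. In KKU-100, TDO2, which degrades tryptophan, was at 205 and 503, and GAS1, a growth arrest protein, at 996 and 444. In KKU-100 the medians over probe sets were within 1.5-fold for TDO2 (0.38) and GAS1 (-0.45), and CCL28 in HuccT1 was at -1.31 against -2.07. The long non-coding RNA LINC00473 went from 510 to 253 in KKU-100 against 8.4 and 7.9 in HuccT1. Signals under the filter are printed to show the level and were not compared.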

How the data were processed

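The 4 arrays (Affymetrix, biotin-labelled RNA) are described by GEO's labels. The deposited values are linear signal intensities that the authors made with MAS5 per the labels (version not given in the sources used here), and the study's methods name log2 normalization in GeneSpring. Of 54675 probe sets, the 62 controls were dropped. The rest were log2 transformed as deposited, since the 4 arrays had medians between 28.8 and 29.3. In the array annotation 41091 probe sets have 1 gene, 1801 several and 11721 none. This left 19775 genes, each represented by the brightest of its probe sets over the 4 arrays. A gene was measured in a line when its mean log2 signal reached the 50th percentile of all probe sets. The cutoff of 1.5-fold is the study's. The common difference was fitted in R 4.3.3 by limma 3.58.1 with eBayes, an intensity trend and a block for cell line. The fit had 1 residual degree of freedom and 4.77 prior ones. It used the 27307 probe sets above the median by mean signal and was tested on simulated data. The arrays were paired by cell line. Nothing in the labels says that arrays came from separate cultures, so p-values speak for these arrays alone, and the number of arrays limits the precision. With 4.77 prior degrees of freedom against 1 residual, the variance behind each p-value comes mostly from the other probe sets in the fit. The named genes were, past the level filter, the 10 first in each direction in both lines by the smaller difference, 8 per line and direction with the other line within 1.2-fold, up to 5 per orientation of opposite sign, up to 4 per list, the 10 smallest p, 4 per line and direction below the filter in the other line, and genes of the study. Genes and lists were chosen with earlier results of these data known. Not all genes that the study names were analysed here, SNAI1 was added to them, and SNAI2 was below the level filter in KKU-100. Other steps used Python 3.11.15, numpy 2.4.6, pandas 2.3.3 and matplotlib 3.10.9. The alternatives were other normalizations, filters, probe set rules, cutoffs and fits, and leaving out each array.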

Additional observations from a re-analysis of the deposited data

Results flagged for a closer look

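The 10 genes named here went opposite ways past 1.5-fold in the 2 lines. Each line has 1 array per dose, and its single pair moved against that of the other line. A comparison of the lines with each other would need replicate arrays and was not tested. INHBA, the subunit of activin A, was at -1.20 in HuccT1 and 0.85 in KKU-100 on the log2 scale. IL6 was at -1.09 and 0.89, and the ERK phosphatase DUSP6 at -0.84 and 1.30. SPRY1, an inhibitor of receptor tyrosine kinase signals, was at -0.74 and 0.94, and THAP10 at -0.93 and 0.90. In the other orientation, ZCCHC2 was at 0.75 and -0.75 and PLPP3, a lipid phosphatase, at 0.72 and -0.83. OSGIN2 was at 0.68 and -0.69, TSC22D1 at 0.62 and -0.68, and EXO1, an exonuclease of DNA repair, at 0.76 and -0.61. Over the median of their probe sets TSC22D1 reversed in both lines, to -0.068 and 0.069, ZCCHC2 (0.43 and -0.50) and OSGIN2 (0.35 and -0.25) were within 1.5-fold in both lines, and INHBA was within it in KKU-100 (0.57).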

How the results depend on the processing

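Under quantile normalization, centring on the medians and a floor at the 20th percentile, every count of genes past 1.5-fold was within 1.5 times the reported one. At a cutoff of 2-fold the counts were 170 higher and 115 lower in HuccT1, 121 and 15 in KKU-100, 50 and 8 in both lines, 120 and 107 in HuccT1 with KKU-100 within, 71 and 7 in KKU-100 with HuccT1 within, 0 and 0 opposite, and 3 NF-kB targets higher in HuccT1. With the median over probe sets KKU-100 had 319 higher, both lines 160 higher, KKU-100 with HuccT1 within 153 higher, and 3 genes were higher in HuccT1 and lower in KKU-100. Of the 264 and 86 shared genes, 185 and 58 have several probe sets, and their median was past 1.5-fold in both lines for 68 and 23. Without a level filter, 580 genes were lower in HuccT1 alone of the 2 lines, 183 in KKU-100, and 8 were higher in HuccT1 and lower in KKU-100. At the 60th percentile 5 were lower in HuccT1 and higher in KKU-100. Without probe sets whose suffix marks possible cross-matches, 2 genes were higher in HuccT1 and lower in KKU-100, NF-kB targets higher numbered 10 in KKU-100 and 3 in HuccT1, and ATF4 pathway genes 5 in each line, with fewer members measured.

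The limma counts moved most. They were 198 higher and 54 lower with quantile normalization, 231 and 48 with centring, 267 and 91 at the 60th percentile, 12 and 0 without the cross-matching probe sets, 0 and 0 without a trend, and 167 and 48 with 1 probe set per gene. The fit with no replicate block, which leaves out the pairing by cell line, called 0 and 0, with 219 and 56 at an unadjusted p under 0.05, against 2992 and 2142 with the block. The methods' t-test, with the lines as pairs, called 0 and 2 after Benjamini-Hochberg adjustment and 1131 and 1031 before it. Leaving out either array of a line leaves the other line alone, a value with no test: the median difference of the probe sets called higher was then 1.279 to 1.296 and of those called lower -1.085 to -0.944. Of 280 values of the 140 named genes with several probe sets, 233 kept their side of 1.5-fold with the median over probe sets. Among values past 1.5-fold under either rule, 5 changed sign: PTPRO in KKU-100 (-0.028), TSC22D1 in HuccT1 (-0.068) and KKU-100 (0.069), ERN1 in HuccT1 (-0.225) and LATS1 in KKU-100 (-0.14). Sign changes of values within 1.5-fold under both rules were not counted, such as that of TAF4 in HuccT1, from -0.472 to 0.055.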
